A study of Rattus norvegicus with 10 samples.

Results

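The shortest CDR3 (complementarity-determining region 3) sequences of the rat antibody heavy chain, those of 6 or fewer amino acids, were taken from the productive reads of 10 spleen repertoires. The rule used only the length of the CDR3 as annotated, without its flanking cysteine and tryptophan. It found 6359 unique short CDR3 among 215200 unique CDR3 in all, or 2.95%, and 81137 of the 1615896 productive reads. They were compared with the 200710 unique CDR3 of 7 to 17 residues. The members came from Wistar rats immunized with recombinant human HuD, a neuronal RNA-binding protein (HuD1 to HuD5), and from Wistar rats immunized with keyhole limpet hemocyanin modified with dinitrophenyl groups (DNP1 to DNP5). All 10 animals received complete Freund's adjuvant with the first dose and incomplete adjuvant with the boosts. RNA of whole spleen cells was copied with a primer in the constant domain that carried a random tag, and amplified as heavy chain variable domains. A deposited sequence, which collapses all sequenced copies with its tag, is called a read here.

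The CDR3 is the loop at the centre of the antigen binding site. It is formed where an IGHV, an IGHD and an IGHJ gene segment are joined, with bases removed from the ends and non-templated bases added between them. Its first residues mostly belong to the IGHV gene, and its last residues, such as aspartate and tyrosine, to the IGHJ gene. In a very short CDR3 these ends meet with little between them.

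The leading short CDR3 are shown here in single-letter amino acids because all counts below refer to such sequences. The 5 with the highest mean share of the productive reads were:
ARPDY: 3914 reads, 8 animals
ARHWGY: 2803 reads, 7 animals
TTWMHA: 1836 reads, 1 animal
AWPST: 1720 reads, 1 animal
TGPFDY: 1791 reads, 2 animals
The CDR3 with the highest mean share were AWDV among those of 4 residues, with 534 reads in HuD3, VRR among those of 3, with 4 reads in DNP5, and Y among those of 1 residue, with 4 reads in 4 animals.

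The libraries held 123799 or more productive reads in 8 of the 10 animals, 91649 in DNP5 and 60647 in DNP3, the smallest. Between 81.1% and 91.1% of all reads were productive. They contain heavy chain transcripts only, so the cell type could not be checked against other markers. In such bulk RNA, more cells with a sequence and more RNA per cell cannot be told apart. Each animal gave 1 library, p-values compare animals, and counting intervals would cover counting error only.

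Short CDR3 made up a few percent of every repertoire, with no difference between the antigens that exceeded the spread between animals. They held 6.47%, 3.53%, 5.24%, 4.23% and 5.60% of the productive reads in HuD1 to HuD5, and 10.5%, 4.03%, 2.50%, 3.15% and 6.05% in DNP1 to DNP5. The DNP animals thus enclosed the HuD animals, with the highest share in DNP1 and the lowest in DNP3. The difference of −0.238 percentage points (HuD minus DNP) gave p = 0.913 in the two-sided exact permutation test over all ways to choose 5 of the 10 animals. Its sign was set by single animals, since it was 0.133 points without HuD2 and 1.08 points without DNP1 (p = 0.262, the same exact permutation test).

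Counted as unique sequences, the short CDR3 were 4.76%, 3.13%, 3.601%, 3.15% and 3.11% of the unique CDR3 in HuD1 to HuD5, and 5.92%, 3.00%, 3.35%, 3.12% and 4.89% in DNP1 to DNP5. The groups overlapped, and the difference of −0.506 points gave p = 0.508 in the exact permutation test. An animal held between 220 (DNP3) and 1246 (HuD2) unique short CDR3. 

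**Figure D1:**
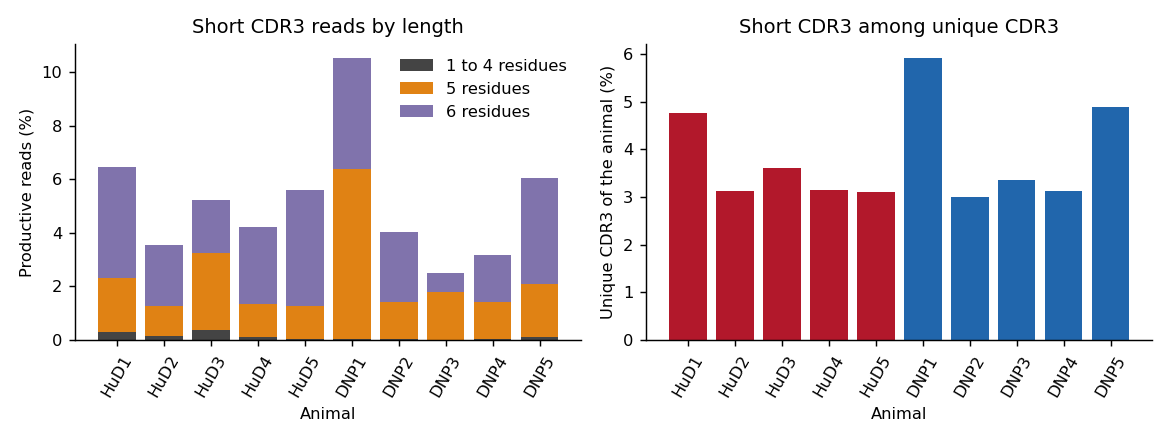
Share of the productive reads with a short CDR3, stacked by length (left, percent), and share of the unique CDR3 of an animal that are short (right, percent), with a bar per animal, HuD1 to HuD5 left of DNP1 to DNP5. Nearly all short reads have 5 or 6 residues, and DNP1 stands highest in both panels, at 10.5% of the reads and 5.92% of the unique CDR3.

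Nearly all of the class lay close to its upper limit. There were 3936 unique CDR3 of 6 residues and 2210 of 5 residues, but 166 of 4, 28 of 3, 16 of 2 and 3 of 1 residue. Just outside the limit, 6084 unique CDR3 had 7 residues, and the mean share of the reads was 2.88% ± 1.24 for 6 residues and 3.32% ± 1.76 for 7 residues (SD, n = 10). CDR3 of 5 residues held 2.14% ± 1.57 of the reads (SD, n = 10), with 6.36% in DNP1. Those of 4 residues held 0.382% in HuD3, 0.282% in HuD1 and at most 0.131% in any other animal.

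The few reads of 1 to 3 residues mostly lacked the usual borders of a CDR3. The junction began with cysteine and ended with tryptophan in 98.3% of the reads with 6 residues, 98.7% with 5 and 94.8% with 4. With 3, 2 and 1 residues this held for 30.4% of 46 reads, 17.5% of 57 reads and 0 of 9 reads.

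The short reads rested on few sequences. The 10 most-read short CDR3 of an animal held 55.7% ± 9.32 of its short reads, and the 10 most-read CDR3 of 7 to 17 residues held 12.9% ± 5.39 of the reads of that class (SD, n = 10 each). This compares top lists from classes of very different size. The mean number of reads per unique CDR3 was 9.98 ± 3.21 for short CDR3 and 7.54 ± 1.35 for 7 to 17 residues (SD, n = 10). The log2 ratio was above 0 in 8 of 10 animals, with −0.463 in DNP3 and −0.000645 in DNP4, and its mean of 0.362 gave p = 0.0273 in the two-sided exact permutation test that flips the sign of the difference within animals. This call ended without HuD3, HuD5 or DNP1 (0.343, 0.306 and 0.303, with p = 0.0547 each in the permutation test), without ARPDY and its neighbours (0.225, p = 0.232 in the permutation test), with 2 reads as the minimum (0.159, permutation p = 0.23) and for sequenced copies (0.0206, permutation p = 0.908).

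Of the unique short CDR3, 71.3% ± 3.45 were seen in 1 read of the animal, against 75.3% ± 6.15 of those of 7 to 17 residues (SD, n = 10). The difference of −4.02 points gave p = 0.0156 in the exact sign-flip permutation test. With every animal thinned to 60647 reads it was −1.38 points, which did not pass (p = 0.158 in the permutation test), and with copies as the unit it was 0.00999 points (permutation p = 0.984).

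Beside these read numbers stands a property of the tag. The authors describe a section of 10 bases from the CDR3 as part of the tag, but for short CDR3 the section measured here lay mostly outside the CDR3. In the reads examined whose section could be placed at 1 position, 3.82 ± 0.865 of its bases belonged to the CDR3 for short CDR3, against 9.62 ± 0.141 for 7 to 17 residues (SD, n = 10 animals). The most frequent sections of the leading 2 sequences are shown to make this visible, with bases of the CDR3 in capitals and bases of the preceding framework in lower case, 5′ to 3′.
ARPDY: tattactgtG
ARHWGY: tactgtGCAA
The section shown for ARPDY covers 1 base of the CDR3 and was found in 2718 of its 3914 reads, and that for ARHWGY covers 4 and was found in 1817 of 2803. Per 100 reads examined, 6.70 ± 1.32 different sections were found for short CDR3 and 28.8 ± 3.91 for 7 to 17 residues. The reads examined were at most 5000 per animal and class. An animal held a mean of 802 unique short CDR3 and 20674 of 7 to 17 residues, so the numbers of sections compare classes of very different size. A short read rested on 1.26 ± 0.174 sequenced copies and a read of 7 to 17 residues on 1.59 ± 0.193 (SD, n = 10). The part of these properties in the read numbers was not tested.

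Among the sequences, 1 CDR3 stood out by its level in the DNP animals. ARPDY was read 1, 27, 4, 0 and 0 times in HuD1 to HuD5, against 2352, 104, 397, 858 and 171 times in DNP1 to DNP5. In percent of the productive reads, the HuD animals lay between 0 and 0.0120 (mean 0.00301 ± 0.00513) and the DNP animals between 0.0840 and 1.69 (mean 0.588 ± 0.651, SD, n = 5 each). Every DNP animal was thus above every HuD animal, and the DNP animals differed widely among themselves. It was the most-read short CDR3 of DNP1, DNP3 and DNP4, with 16.04%, 26.2% and 10.5% of their short reads, and took 2.08% in DNP2 and 3.09% in DNP5.

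In the edgeR quasi-likelihood test over the 1364 CDR3 of all lengths that were read in at least 3 animals, ARPDY had a log2 fold change of −7.57 (HuD over DNP) with an adjusted p of 0.218, and with DESeq2 −6.92 with an adjusted p of 0.00432. With 1 animal left out the edgeR value lay between −9.47 and −6.67, and none of these fits passed.

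Many variable domains carried ARPDY. The annotation joined it to 34 IGHV genes, and IGHV5-7 held 69.1% of its reads. In HuD2 the leading gene was IGHV2-1 with 15 of 27 reads, and in HuD3 IGHV5-25 with 3 of 4. IGHV5-7 was the most-read gene in each of the 5 DNP animals, with 51.4% of the ARPDY reads in DNP4 and 75.5% in DNP1. IGHJ2 was named in 98.3% of its reads and an IGHD gene in 6.03%. Its 3914 reads held 2826 different variable domains. In DNP1 a read of ARPDY rested on 3.22 copies, and in the other 4 DNP animals on 1.10 to 1.39.

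The CDR3 that differ from ARPDY at a single residue were examined after the values of ARPDY had been seen. Of 95 possible sequences, 54 were read. Their summed share of the productive reads was 0.0352%, 0.0356%, 0.0345%, 0.0559% and 0.0468% in HuD1 to HuD5, and 1.07%, 0.288%, 0.416%, 0.113% and 0.192% in DNP1 to DNP5, so that the groups did not overlap. No neighbour other than ARGDY was read in all 10 animals. ARPDA had 448, 0, 52, 5 and 1 reads in DNP1 to DNP5, AKPDY 386, 0, 9, 39 and 93, and ARPDN 132, 0, 50, 27 and 0, with no read of these in a HuD animal. Of the 357 neighbour reads of DNP2, 221 were ARLDY and 115 were ARRDY, whose leading genes were IGHV5-22 and IGHV5S13. Both were also read in every HuD animal. ARLDY had 34, 2, 6, 3 and 2 reads in HuD1 to HuD5, and ARRDY had 4, 6, 1, 5 and 2. The summed share of DNP2 thus rested mostly on neighbours that were not confined to the DNP animals. Changes of the last residue accounted for 13 of the 54 sequences and for 1440 of their 2961 reads. How the neighbours arose was not tested.

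The other leading short CDR3 belonged to 1 or a few animals. ARHWGY had 2795 reads in HuD4, which is 1.52% of its productive reads, and at most 2 reads in each of 6 other animals. IGHV5-25 was its leading gene with 40.5% of the reads. TGPFDY had 1725 reads in HuD1 and 66 in HuD4, and TTGLH 1214 in HuD3, 394 in HuD4 and 1 in HuD2. TIHPRY was read 1655 times in HuD5, TMGLY 1134 times in HuD3, TTWMHA 1836 times in DNP1 and AWPST 1720 times in DNP1, each in that animal only. ARLGGG had 1369 reads in HuD5 and 1 in HuD4, and ARHYTY 464 in DNP5 and 120 in DNP1. The most-read short CDR3 of the remaining animals were TRNWDY in HuD2 (664 reads), ARLGGD in DNP2 (675) and KLGGAY in DNP5 (533).

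No short CDR3 passed the threshold between the antigens in edgeR. Of 369 short CDR3 tested, 0 were called in either direction at an adjusted p of 0.05 (background 0% of 1364 CDR3), and the lowest adjusted p over all CDR3 was 0.0941. At an unadjusted p under 0.05 there were 46 higher (12.5%) and 38 lower (10.3%) in HuD. Of all 1364 CDR3, 29.5% had such a p in either direction. DESeq2 called 13 short CDR3 higher in HuD, or 3.52%, against 4.25% of all CDR3 tested, and 9 lower in HuD, or 2.44%, against 1.76%. It gave no adjusted p for 330 of the 369, which could not be called but are counted in these shares. With at least 2 reads per animal, edgeR called 12 in each direction among 101 short CDR3 tested. The share over all CDR3 is not at hand for this setting, so these 2 counts have no background.

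By a count that uses no model, the groups did not overlap for 7 short CDR3 higher in all HuD animals, which is 1.90% of the 369 and compares with 1.17% of all 1364 CDR3. They were ASRDY, TTGRDY, TREGAY, ASVDY, ARQGY, ARHMDA and TRGGDY. For 3 short CDR3, ARPDY, TTDAAY and ARPDH, all DNP animals were higher, which is 0.813% against 0.44% of all CDR3. These shares were not tested against each other.

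Of these, 6 HuD sequences and 2 DNP sequences had no read at all under the other antigen, which allows up to 0.000319% of the 940526 reads of the HuD animals and 0.000444% of the 675370 reads of the DNP animals (3 reads over the group). This limit pools the reads of 5 animals and covers counting error only, so it is no limit for a single animal. These sequences stand among 6359 unique short CDR3, and each met the minimum of 3 animals only through the animals of its own antigen. Among the 200710 unique CDR3 of 7 to 17 residues, 8 were read in all HuD animals only and 0 in all DNP animals only. Whatever the antigen, fewer CDR3 of that class were found in another animal, with a mean of 5.45% against 32.7% of the short CDR3. ASRDY had 408, 431, 3, 74 and 3 reads in HuD1 to HuD5, TTGRDY 85, 33, 17, 2 and 5, and TREGAY 1, 2, 29, 9 and 2. ASVDY had 1, 9, 5, 1 and 2 reads, ARQGY 1, 1, 2, 9 and 3, and TRGGDY 1, 2, 2, 2 and 2. TTDAAY had 22, 1, 65, 673 and 7 reads in DNP1 to DNP5, and ARPDH, a neighbour of ARPDY, had 129, 1, 105, 27 and 48. All of these short CDR3 except ASRDY and TTGRDY thus rested on 1 read in at least 1 animal.

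ARGDY and TTGDY were read in all 10 animals, both at low levels. ARGDY had 3, 6, 3, 3 and 9 reads in HuD1 to HuD5 and 16, 3, 3, 16 and 1 in DNP1 to DNP5. TTGDY had 37 reads in all, at most 6 in any HuD animal, and was joined to 15 IGHV genes.

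Short CDR3 were found in other animals far more often than longer ones. Of the unique short CDR3 of an animal, 33.1%, 29.4%, 30.7%, 34.3% and 31.7% in HuD1 to HuD5 and 31.4%, 35.1%, 37.7%, 30.7% and 32.5% in DNP1 to DNP5 were read in at least 1 other animal. For 7 to 17 residues these shares were 5.48%, 4.18%, 5.10%, 5.02% and 4.77% in HuD1 to HuD5 and 5.23%, 4.93%, 8.95%, 4.49% and 6.33% in DNP1 to DNP5. The classes did not overlap, and the mean difference of 27.2 points gave p = 0.00195 in the exact sign-flip permutation test, the smallest p it can give. Among CDR3 with 1 read in the animal the shares were 28.8% ± 3.30 and 4.45% ± 1.39 (SD, n = 10), a difference of 24.3 points with the same permutation p of 0.00195.

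**Figure D2:**
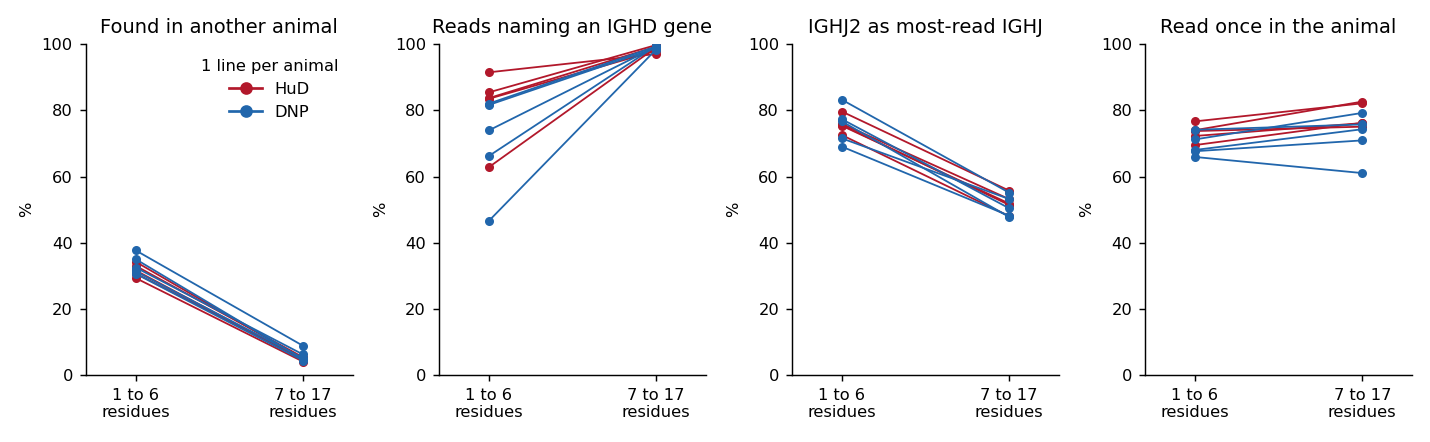
Values in percent for CDR3 of 1 to 6 residues (left of each panel) and of 7 to 17 residues (right), with a line per animal, red for HuD and blue for DNP: unique CDR3 found in another animal, reads that name an IGHD gene, unique CDR3 with IGHJ2 as their most-read gene, and unique CDR3 with 1 read in the animal. The first 3 panels separate the classes in every animal, with means of 32.7%, 75.7% and 75.7% for short CDR3, and the last does not.

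Most short CDR3 were nevertheless private. Over the 10 animals, 5451 of the 6359 were found in 1 animal, 539 in 2, 186 in 3, and 15 in 8 or more. In the class of 7 to 17 residues 2.15% were found in at least 2 animals, against 14.3% of the short CDR3. By length, this share was 14.5% for 4 residues, 18.1% for 5, 11.9% for 6, 9.04% for 7, 6.89% for 8 and 1.49% for 12. The share thus fell with no step at the limit of 6 residues. The shared short CDR3 held 48.0% ± 9.13 of the short reads of an animal, and the shared CDR3 of 7 to 17 residues held 19.9% ± 12.1 of the reads of their class (SD, n = 10). Of the 908 shared short CDR3, 531 were read under both antigens, 228 in HuD animals only and 149 in DNP animals only. For the 4325 shared CDR3 of 7 to 17 residues these numbers were 1975, 1409 and 941. The HuD animals had more productive reads, 940526 against 675370 in the DNP animals.

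A shared short CDR3 mostly had different leading IGHV genes in the animals that shared it, but the same IGHJ gene. The most-read IGHV gene was the same in all animals that had it for 15.6% of the shared short CDR3 and 25.6% of the shared CDR3 of 7 to 17 residues, and the most-read IGHJ gene for 78.5% and 93.6%. Of the 37833 reads of shared short CDR3, 5.11% had a variable domain that was also read in another animal, and 24 reads (0.0634%) had both the same tag and the same variable domain there. For the 276443 reads of shared CDR3 of 7 to 17 residues these shares were 6.11% and 0.0181% (50 reads).

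The overlap of the short repertoires was larger between animals of the same antigen. It is the geometric mean of the shares of the short reads held by the common CDR3. The median was 18.3% over the 10 pairs of HuD animals, 19.6% over the 10 pairs of DNP animals and 7.86% over the 25 mixed pairs, and the sets of pairs overlapped, with 8.06% to 41.8% for same-antigen and 1.47% to 27.4% for mixed pairs. On the log10 scale the same-antigen mean was higher by 0.425, and regrouping the animals into 5 and 5 in every possible way gave p = 0.00794 (one-sided exact permutation test), the smallest it can give. Without ARPDY and its neighbours the median of the DNP pairs was 10.96%, and the difference was 0.393 with the same permutation p of 0.00794. For 7 to 17 residues the medians were 3.26% for same-antigen and 1.31% for mixed pairs, and the overlap was higher for the short CDR3 in 43 of the 45 pairs.

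**Figure D3:**
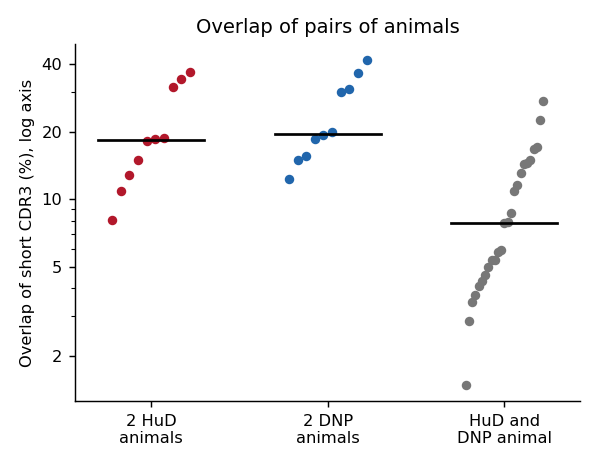
Overlap of short CDR3 for every pair of animals in percent on a log axis, for pairs of HuD animals (red), pairs of DNP animals (blue) and mixed pairs (grey), with a point per pair and a black line at the median. The medians are 18.3%, 19.6% and 7.86%, and the mixed pairs reach down to 1.47%.

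The IGHJ genes of the short CDR3 differed from those of longer CDR3 in all 10 animals, with IGHJ2 higher and the other 3 genes lower. IGHJ2 was the most-read gene of 75.7% ± 4.04 of the unique short CDR3 and of 51.5% ± 2.89 of those of 7 to 17 residues (SD, n = 10). IGHJ1 fell to 2.83% ± 0.959 in short CDR3, against 10.96% ± 1.07 in longer ones. For IGHJ4 the shares were 6.20% ± 1.75 and 16.3% ± 3.62, and for IGHJ3 15.3% ± 3.48 and 21.2% ± 1.47. The differences were 24.2, −8.13, −10.1 and −5.92 points, each with an adjusted p of 0.00195 in the exact sign-flip permutation test over the 4 genes.

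An IGHD gene, which contributes the middle of the CDR3, was named in fewer of the short reads. The share was 83.7%, 62.8%, 83.5%, 91.4% and 85.4% in HuD1 to HuD5 and 66.2%, 81.6%, 46.6%, 73.9% and 82.0% in DNP1 to DNP5. For 7 to 17 residues it was at least 97.0% in every animal. The mean difference of −23.1 points gave p = 0.00195 in the exact sign-flip permutation test, and it was −15.8 points without ARPDY and its neighbours, at the same permutation p of 0.00195. By length, an IGHD gene was named in 43.1% of the reads with 4 residues, 64.8% with 5, 87.8% with 6, 89.1% with 7 and 98.0% with 9 residues. A missing name does not show that no IGHD gene was used.

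The choice of IGHV genes differed most clearly in the IGHV6 subgroup. Of 136 genes with a CDR3 of either class, 90 had a short one and 21 had one in every animal. The most used genes of the short CDR3 were IGHV5-20 (11.8% ± 2.72 of the unique short CDR3), IGHV5-25 (9.84% ± 2.61), IGHV5-7 (8.22% ± 5.25), IGHV5-31 (7.72% ± 3.89) and IGHV6-6 (6.89% ± 2.23, SD, n = 10). Among 88 genes tested with edgeR, 11 were higher in short CDR3 (12.5%) and 11 lower (12.5%), and by TMM scaling 6 were higher and 26 lower, by DESeq2 3 and 24. The median log2 fold change of all genes was −0.17 in the edgeR fit, −0.57 with TMM and −0.29 with DESeq2.

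IGHV6-6 rose to 6.89% of the unique short CDR3, against 0.526% ± 0.227 of those of 7 to 17 residues. It held 7.87%, 5.30%, 9.25%, 4.21% and 5.24% of the short CDR3 in HuD1 to HuD5 and 9.23%, 5.36%, 10%, 4.28% and 8.14% in DNP1 to DNP5. Among the longer CDR3 no animal had more than 0.902%, so the classes did not overlap. The log2 fold change was 3.73 ± 0.16 (SE, edgeR adjusted p = 2.61e-15). Seen from the gene, 35.5% ± 7.19 of its unique CDR3 and 57.1% ± 13.3 of its reads were short (SD, n = 10), with 21.8% of the unique CDR3 in DNP4 as the lowest. Over all animals 521 of the 1503 unique CDR3 of IGHV6-6 were short, and 25.1% of these 521 began with AW and 17.3% with AS. Different sequences led in each animal, among them ATPGH with 338 reads in HuD1, ASVY with 174 in HuD2, AWDV with 534 in HuD3, AWPST with 1720 in DNP1, AHPSY with 383 in DNP2 and ASPGA with 288 in DNP4.

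IGHV10-4 rose as well, at 1.02% ± 1.19 of the unique short CDR3 and 0.101% ± 0.131 of the longer ones (SD, n = 10), with a log2 fold change of 3.35 ± 0.29 (SE, edgeR adjusted p = 1.83e-09). It was higher in 9 of 10 animals and had no short CDR3 in HuD5. It rested on 60 short CDR3. IGHV2-6 averaged 1.65% ± 1.33 and 1.22% ± 2.02 and was higher in 9 animals (log2 fold change 1.21 ± 0.31, SE, edgeR adjusted p = 0.00359). The call of IGHV2-6 ended with 5 or fewer residues as short (0.75), with TMM (0.81), with DESeq2 (0.53) and without the animal as a term (0.46). IGHV5-20 averaged 11.8% in short and 9.10% ± 2.17 in longer CDR3 (log2 fold change 0.37 ± 0.11, SE, edgeR adjusted p = 0.00886), and its direction turned with TMM (−0.0647), with DESeq2 (−0.25) and with copies as the unit (−0.21).

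The genes with the largest decrease in short CDR3 came from several subgroups. IGHV1-57 had 1 short CDR3 beside 371 of 7 to 17 residues (log2 fold change −3.71 ± 0.72, SE, edgeR adjusted p = 0.000387). That CDR3 was in HuD2, and without HuD2 the gene had no short CDR3 and a fitted value of −6.89, which is no bound. IGHV1-43 averaged 0.192% of the short and 1.72% of the longer CDR3 and was lower in all 10 animals, with −3.14 ± 0.33. IGHV3-1 was also lower in all 10 animals, at 1.13% ± 0.703 against 4.24% ± 2.28 (SD, n = 10), with −1.96 ± 0.17. IGHV5S14 had 16 and IGHV5S11 17 short CDR3, with log2 fold changes of −2.28 ± 0.31 and −1.82 ± 0.38 (SE), and each had no short CDR3 in several animals. Without the animal as a term neither passed (edgeR adjusted p = 0.323 for IGHV5S14 and 0.189 for IGHV5S11). Of the whole subgroups, IGHV6 held 8.23% ± 2.86 of the short and 1.00% ± 0.614 of the longer CDR3, and 4 of its 6 tested genes were called higher. IGHV3 held 1.91% ± 0.905 and 6.53% ± 2.43, and IGHV5, the largest, 69.0% ± 2.99 and 72.7% ± 4.35 (SD, n = 10 each).

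**Figure D4:**
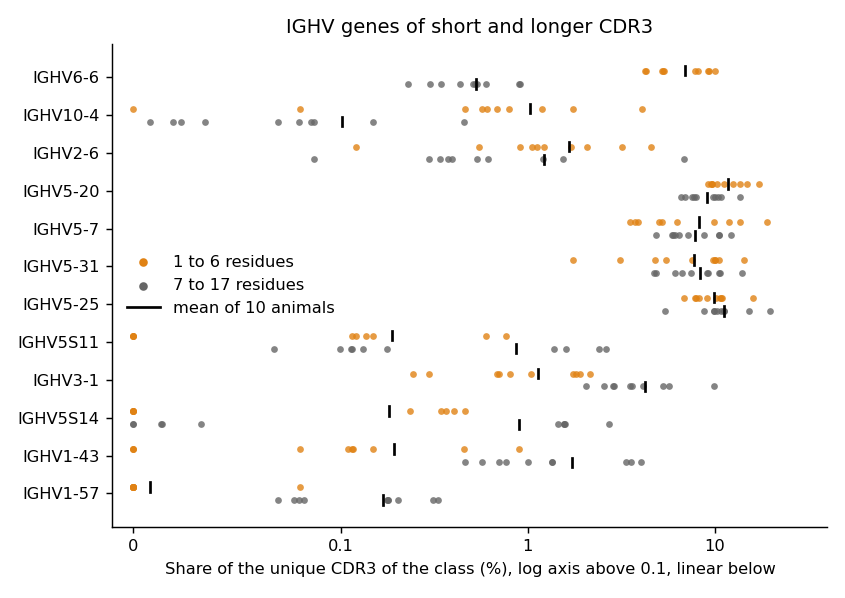
Share of the unique CDR3 of a class that each named IGHV gene holds, in percent on an axis that is logarithmic above 0.1 and linear below, with a point per animal, orange for 1 to 6 residues above grey for 7 to 17 residues, and a black line at the mean of 10 animals. The classes separate for IGHV6-6, with means of 6.89% and 0.526%, while the points of IGHV5-7, IGHV5-31 and IGHV5-25 overlap.

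Between the antigens, 2 of 40 IGHV genes tested were higher in the short CDR3 of the HuD animals (5%) and 1 was lower (2.5%). IGHV5-7 fell to 3.75%, 5.22%, 3.54%, 3.87% and 5.01% of the unique short CDR3 in HuD1 to HuD5, against 19.1%, 6.28%, 13.6%, 11.9% and 9.91% in DNP1 to DNP5. The groups did not overlap, and the log2 fold change was −1.50 ± 0.31 (SE, edgeR adjusted p = 0.00533). It passed in every setting tried, between −3.05 with at least 2 reads per animal and −1.23 with TMM. Among the longer CDR3 IGHV5-7 held 4.82% to 7.14% in the HuD animals and 5.86% to 12.2% in the DNP animals. These ranges overlapped, and that of the DNP animals reached higher, but the difference was not tested.

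IGHV5-29 held 9.25% ± 3.55 of the short CDR3 in the HuD animals and 1.61% ± 2.62 in the DNP animals (SD, n = 5 each), with 6.28% in DNP2, above the 5.21% of HuD1. Its log2 fold change was 2.48 ± 0.68 (SE, edgeR adjusted p = 0.0362). Among the longer CDR3, where the difference was not tested, IGHV5-29 held 10.5%, 9.19%, 12.8%, 17.5% and 9.41% of those of 7 to 17 residues in HuD1 to HuD5, and 0.437%, 7.49%, 0.0162%, 0.685% and 0.629% in DNP1 to DNP5. IGHV2-13 held 2.24% ± 2.45 and 0.204% ± 0.402, with 6.52% in HuD5, and its log2 fold change was 3.31 ± 0.98 (SE, edgeR adjusted p = 0.0431). Among the longer CDR3 it held 0.442% to 4.92% in the HuD animals and 0 to 0.608% in the DNP animals, with the 0.608% in DNP2. The authors describe the animals as outbred, and which IGHV genes each animal carries was not tested. The call of IGHV5-29 ended without HuD3, HuD4, DNP3, DNP4 or DNP5 (edgeR adjusted p 0.0536 to 0.134, log2 fold changes 2.24 to 2.46). That of IGHV2-13 ended without any animal other than HuD1, HuD2 or DNP2 (edgeR adjusted p 0.0536 to 0.145, log2 fold changes 2.38 to 3.48). Without DNP2, both were larger, at 4.38 for IGHV5-29 (edgeR adjusted p = 6.02e-10) and 5.49 for IGHV2-13 (0.000178).

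The residues of the short CDR3 differed from those of longer ones in 15 of 20 amino acids, with 7 higher (35%) and 8 lower (40%). Threonine made up 13.6% ± 0.718 of the residues in short and 6.48% ± 0.442 in longer CDR3, a difference of 7.17 points. Alanine averaged 14.4% ± 1.23 and 10.8% ± 0.948, arginine 10.5% ± 1.15 and 8.67% ± 0.394, and leucine 3.85% ± 0.361 and 2.79% ± 0.132 (SD, n = 10). All 4 were higher in 10 of 10 animals. Glutamate was higher by 0.393 points, in 8 of 10 animals (adjusted p = 0.0140 in the exact sign-flip permutation test).

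Tyrosine and phenylalanine were the residues with the largest decreases, with differences of −5.78 and −4.35 points. They made up 11.5% ± 0.689 and 2.58% ± 0.522 of the short CDR3, against 17.3% ± 0.708 and 6.93% ± 0.352 of the longer ones (SD, n = 10). The difference was −0.847 points for methionine, −0.782 for isoleucine and −0.687 for serine, which was lower in 9 of 10 animals. The adjusted p of the permutation test was 0.00488 for threonine, alanine, arginine, leucine, tyrosine, phenylalanine, methionine and isoleucine, and 0.00710 for serine. Without the outer 2 residues at each end, threonine was lower in short CDR3 (−0.782 points), and weighted by reads, 1 residue was higher and 3 were lower.

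**Figure D5:**
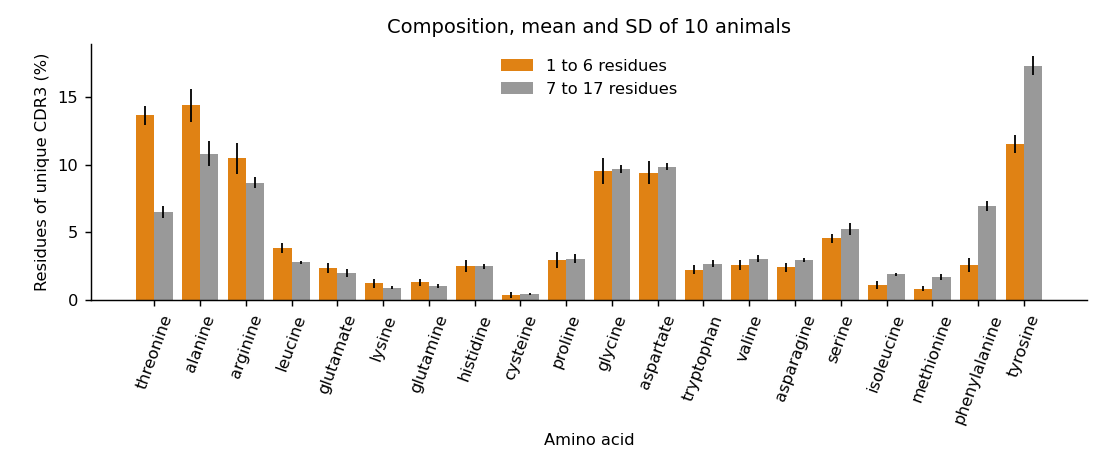
Share of each amino acid among the residues of the unique CDR3, in percent, as the mean of 10 animals with the SD as error bar, orange for 1 to 6 residues and grey for 7 to 17 residues, ordered by their difference. Threonine at the left stands at 13.6% and 6.48%, and tyrosine at the right at 11.5% and 17.3%.

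The ends of the short CDR3 also differed. The last residues were DY in 19.5% ± 1.97 of the unique short CDR3 and 37.7% ± 2.50 of the longer ones (SD, n = 10). The difference of −18.2 points gave p = 0.00195 in the exact sign-flip permutation test. TT was a frequent start of the short CDR3, at 15.8% ± 1.90 against 6.56% ± 1.06, and was higher in all 10 animals, as were AT (10.7% ± 4.00 against 7.80% ± 2.75) and AS (5.26% ± 0.716 against 3.21% ± 0.660). GY and GD were more frequent ends in all 10 animals, at 7.98% ± 2.11 against 2.31% ± 0.570 and at 3.22% ± 0.811 against 0.292% ± 0.116. The ends DA and DF, at 3.70% ± 0.700 and 1.74% ± 0.668 of the short CDR3, were found in 13.6% ± 2.52 and 10.5% ± 0.959 of the longer ones, lower in all 10 animals. The end AY was also lower in all 10 animals, at 8.84% ± 1.21 against 15.2% ± 1.31. As a start, TR was at 11.8% ± 3.79 against 12.3% ± 3.35 and higher in 2 of 10 animals. VR was lower in all 10, at 1.82% ± 0.781 against 3.44% ± 1.69. The pairs other than DY were taken from the most frequent pairs of the short CDR3, of which not all are given, and were not tested.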

How the data were processed

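Heavy chain variable domains from the spleen of 10 rats, 5 per antigen and 1 library each, were analysed from the authors' annotated sequences. The authors merged the read pairs, collapsed them by tag and annotated the result with High-VQuest, and the deposited count of a sequence gives its sequenced copies. A deposited sequence was used as 1 read, and copies were an alternative unit. No versions or germline set were stated in the sources used. Productive reads, 60647 to 259834 per animal, were kept, dots were removed from the CDR3, and the first IGHV gene was used (14.1% of the reads name several). No CDR3 held another letter than the 20 amino acids, so leaving such CDR3 out changed nothing. More reads give smaller counting error, and DNP3 and DNP5 are the least deep.

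Antigens were compared over animals by exact permutation (two-sided, for the overlap of pairs one-sided, smallest p 0.00794 in both), and length classes within animals by exact sign flips (smallest p 0.00195), with Benjamini-Hochberg adjustment over the IGHJ genes or residues and a threshold of 0.05. edgeR 4.0.16 (quasi-likelihood test, R 4.3.3) was fitted to unique CDR3 per IGHV gene (at least 20, class totals as library size) and to reads per CDR3 of all lengths in at least 3 animals. DESeq2 1.42.0 and TMM were alternatives. An SE was taken from the log2 fold change and its F statistic. The tag section was placed by codons in at most 5000 reads per animal and class. Scripts ran in Python 3.11.15 and were tested on simulated data.

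The members and lists were chosen with earlier results of these data known. Named were the 10 short CDR3 with the highest mean read share, the most-read of each animal and length, those in all animals or in all of 1 antigen only, the 5 most used IGHV genes, up to 5 IGHV genes in each direction past the threshold with 1 sign in at least 9 animals, and up to 5 residues in each direction. The leading CDR3 of 2 residues and 1 pair of first residues are not reported here. Animals of 1 number are different animals, and the correlations of their deviations in IGHV use ran between 0.0153 and 0.222, with some under 0.1, so they were not paired. Alternatives were another length limit, 7 or more residues as comparison, 2 reads as minimum, removal of CDR3 1 substitution from one with 10 times the reads, thinning to 60647 reads in 10 draws, other units and filters, and each animal left out. Those chosen after seeing the data required both flanking residues or left out ARPDY and its neighbours.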

Additional observations from a re-analysis of the deposited data

Results flagged for a closer look

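The 104 groups of 5 animals examined for an animal far from the others gave 30 such cases. Each is an animal that stood apart from the other 4 of its antigen, whatever the level under the other antigen. No chance rate is set beside this number, because many CDR3 were named for being the most read in 1 animal. A single value beside 4 zeros also always counted as a case. Many cases were levels of a single CDR3. In percent of the productive reads these were ARHWGY in HuD4 (1.52), TTWMHA and AWPST in DNP1 (1.32 and 1.23), TGPFDY in HuD1 (1.10), TIHPRY and ARLGGG in HuD5 (0.798 and 0.660), TMGLY and AWDV in HuD3 (0.675 and 0.318), KLGGAY and ARHYTY in DNP5 (0.582 and 0.506), ARLGGD in DNP2 (0.545) and TRNWDY in HuD2 (0.296). Cases at low levels were TTGRDY in HuD1 (0.0544), TREGAY in HuD3 (0.0173), ARPDY in HuD2 (0.0120), ARQGY in HuD4 (0.00489), VRR and Y in DNP5 (0.00436 and 0.00109), TRNWDY in DNP2 (0.00162) and ARLGGD in HuD2 (0.000445).

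In percent of the unique short CDR3, IGHV2-13 stood apart in HuD5 (6.52) and DNP2 (0.919), IGHV5-29 in DNP2 (6.28), IGHV5-31 in HuD4 (7.52), IGHV5S14 in DNP2 (0.459), IGHV3-1 in DNP5 (0.296) and IGHV1-57 in HuD2 (0.0803). In the difference between short and longer CDR3, DNP3 stood apart in threonine (9.49 points), and HuD1 in phenylalanine (−3.22 points) and leucine (0.298 points).

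Of 31 differences between short and longer CDR3, 1 differed between the antigens. The serine difference averaged −0.386 points in the HuD and −0.989 points in the DNP animals, 0.602 points apart (two-sided exact permutation test, p = 0.0317), which did not pass after adjustment over the 31 (permutation test, adjusted p = 0.861).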

How the results depend on the processing

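The sharing, IGHD, IGHJ, DY end and overlap results kept their direction and side of the threshold under all alternatives run. The size moved for overlap (0.645 with at least 2 reads, and 0.136 for the Jaccard index, another measure), for IGHD (−36.2 points with 5 or fewer residues), for IGHJ4 (−6.67 for reads) and for IGHJ3 (−14.1 for reads, −10.5 with at least 2 reads, −9.08 with 5 or fewer residues, −3.36 without CDR3 near an abundant one). The causes of the changes listed here were not tested. The difference in read share was −0.926 to 1.08 points with 1 animal left out and 0.667 without ARPDY and its neighbours, none of which passed. Reads per unique CDR3 (log2) gave 0.303 to 0.454 with 1 animal left out, 0.159 with at least 2 reads, 0.0206 for copies and 0.225 without ARPDY and its neighbours. The single-read share gave −1.38 points after thinning and 0.00999 for copies. With 5 or fewer residues as short, 4 residues were higher and serine turned to 0.256, weighted by reads 1 was higher, 3 were lower and glutamate turned to −0.211, and without the outer residues threonine turned to −0.782.

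For IGHV genes of short against longer CDR3, those higher numbered 4 with 5 or fewer residues, 6 with at least 2 reads, 6 for copies, 5 for reads, 6 with TMM, 3 with DESeq2 and 3 with no replicate block (the animal as a term left out). Those lower numbered 23 for reads, 26 with TMM, 24 with DESeq2 and 4 with no replicate block. IGHV1-57 had −7.16 with 5 or fewer residues and −6.07 with at least 2 reads, and for reads IGHV1-43 had −5.31, IGHV3-1 −4.29 and IGHV6-6 4.73. IGHV5-20 turned to −0.21 for copies, −0.0647 with TMM and −0.25 with DESeq2, IGHV5-25 to 0.01 for copies, and IGHV5-7 to 0.0966 with 5 or fewer residues, 0.14 for copies, 0.12 for reads and 0.0634 with no replicate block.

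Between the antigens, genes higher in HuD numbered 0 to 7 with 1 animal left out (0 without HuD3, HuD4, DNP3, DNP4 or DNP5, 1 without DNP1, 7 without DNP2), and genes lower in HuD 1 to 5 (3 without HuD5, 5 without DNP2). They numbered 7 and 4 for copies and for reads, and 5 and 3 with no minimum. Lower genes numbered 4 with 5 or fewer residues, 2 without CDR3 near an abundant one and 2 from reads that name 1 gene. The replicate number does not pair the animals. With it as a replicate block, 1 gene was higher and IGHV2-13 had 3.21 (edgeR adjusted p = 0.115), while read share stayed at −0.238 (exact permutation p = 0.812). Short CDR3 called higher and lower were 12 and 12 with at least 2 reads, with no share over all CDR3 at hand, and 13 and 9 with DESeq2.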
